A study of Homo sapiens with 12 samples.

Results

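The genes that carry a cell from G1 into S phase were followed in osteosarcoma cells given NXP800. They were 9 genes picked by symbol from the 43236 symbols of the count tables: the D-type cyclins CCND1, CCND2 and CCND3, the E-type cyclins CCNE1 and CCNE2, the cyclin-dependent kinases CDK2, CDK4 and CDK6, and the phosphatase CDC25A. All 9 passed the filter on low counts and were tested, CCND2 only through its counts in the NXP800 libraries. Poly(A) RNA was sequenced from HOS-MNNG, an established human osteosarcoma cell line (also written MNNG/HOS) derived from HOS cells with the carcinogen MNNG. The cells received DMSO, the solvent control, or NXP800, an orally available small molecule, for 6 h or 24 h, with 3 libraries in each of the 4 groups. All libraries came from this 1 line, and the labels give neither a dose nor whether replicates were separate cultures, so the p-values measure the spread between these libraries, which may be technical.

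D-type cyclins bind CDK4 and CDK6, and E-type cyclins bind CDK2. The paired kinases phosphorylate the retinoblastoma protein RB1 and so free E2F factors, which switch on genes for DNA replication, CCNE1, CCNE2 and CDC25A among them. CDC25A removes inhibitory phosphates from CDK2 and its relatives, whereas the CIP/KIP and INK4 inhibitors hold the kinases in check. The data are RNA levels only, and kinase activity, protein and the share of cells in each cycle phase were not measured in these files. In such bulk samples fewer cells in a phase and less RNA per cell cannot be told apart.

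Each library held between 30810614 and 31947656 reads counted on genes. Read pairs that overlapped no counted feature made up 6.66% to 8.14% of the 6 h libraries and 2.73% to 3.67% of the 24 h ones. The libraries of both times thus also differ as sets, and time and set cannot be told apart. The mesenchymal marker VIM (3338 to 5891 CPM, that is counts per 1000000 scaled to an effective library size) was present in every library. So were the osteoblast factor RUNX2 (20.8 to 42.5 CPM), COL1A1 (143 to 566.4 CPM) and SPARC (91.7 to 614.6 CPM). The osteoblast genes COL1A2, ALPL and SP7, by contrast, reached at most 12 counts. Leukocyte markers summed to at most 0.184 CPM and endothelial markers to at most 1.83 CPM. The 3 epithelial markers, almost wholly KRT8 with CDH1 at 2 counts or fewer, summed to 587.5 to 723.2 CPM under DMSO and 554.3 to 631.7 CPM under NXP800 at 6 h, and to 851.7 to 901 CPM against 502.6 to 642.3 CPM at 24 h. The 7 mesenchymal and osteoblast markers summed to 5031 to 5220 CPM against 4195 to 4333 CPM at 6 h and to 5915 to 6766 CPM against 3798 to 4634 CPM at 24 h. The part of these shifts in the results was not tested.

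On GRCh38 the D-type cyclins lie at chr11:69641156-69654474 (CCND1), chr12:4273762-4305353 (CCND2) and chr6:41934933-42050035 (CCND3), and the E-type cyclins at chr19:29811991-29824312 (CCNE1) and chr8:94880224-94896693 (CCNE2). The kinases lie at chr12:55966830-55972789 (CDK2), chr12:57747727-57752310 (CDK4) and chr7:92604921-92836573 (CDK6), and CDC25A at chr3:48157146-48188417. Reads were counted per gene, so no isoform of these is told apart.

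Most of these genes had less RNA under NXP800. CCND2 entered the test only through the libraries in which it was high, so it had to differ and is given by its counts, outside the counts of genes here. Of the other 8 genes, 6 fell at 6 h (CCND1, CCND3, CCNE1, CCNE2, CDK2 and CDC25A), CDK6 rose and CDK4 did not pass the test. At 24 h, 6 fell (CCND3, CCNE1, CCNE2, CDK2, CDK4 and CDC25A), none rose, and CCND1 and CDK6 did not pass. These counts stand against a broad response: 27.8% of the 15979 genes tested fell and 25% rose at 6 h, and 28.6% fell and 27.5% rose at 24 h. The genes that fell at both times were 5 of the 8, and 18.5% of all genes tested did so. The median log2 fold change of the 8 genes was -0.52 at 6 h and -0.66 at 24 h, with -0.05 and -0.0033 over all genes tested. A gene was called where its Benjamini-Hochberg adjusted p from the edgeR quasi-likelihood test over all tested genes was below 0.05.

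**Figure D1:**
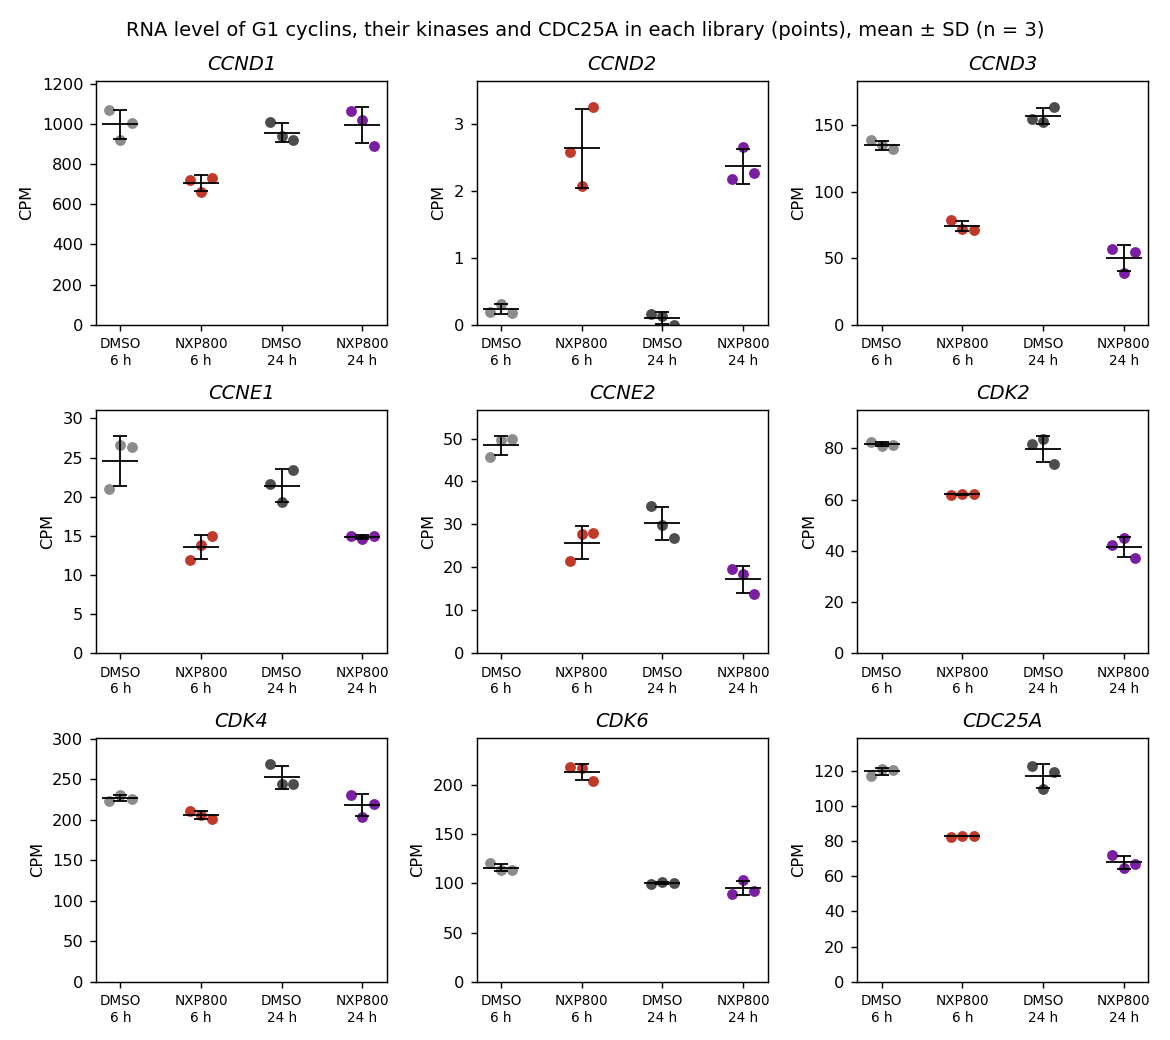
RNA level in CPM (linear axis from 0, scaled separately for each gene) of the 9 genes in the 4 groups. Points are the 3 libraries of a group, and bars give the mean and SD. The CDK6 points of NXP800 at 6 h (204 to 218.7 CPM) stand above all other groups, and the CCND3 points of NXP800 lie below those of DMSO at both times.

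CCND1, the most abundant of the D-type cyclins here, fell at 6 h and stood at the control level at 24 h. At 6 h its 3 DMSO libraries held 1068, 921 and 1005 CPM and its NXP800 libraries 722.8, 658.9 and 733.5 CPM. At 24 h the DMSO libraries held 1011, 941.1 and 918.8 CPM and the NXP800 libraries 1067, 1021 and 892.8 CPM. The groups were apart at 6 h, with every treated library below every control, and interleaved at 24 h. The log2 fold change was -0.50 (SE 0.081) at 6 h, a level 1.42-fold lower (edgeR adjusted p = 7.62e-05). At 24 h it was 0.05 with a 95% interval of -0.12 to 0.23 (edgeR adjusted p = 0.59), so its lower bound is a smaller loss than the one fitted at 6 h.

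CCND3, a D-type cyclin best known from lymphoid cells, had the deepest fall of the 9 genes at 24 h. Its DMSO libraries held 138.5, 134.8 and 131.7 CPM at 6 h, against 78.66, 72.24 and 71.39 CPM under NXP800. At 24 h the values were 154.6, 152.1 and 163.5 CPM against 56.79, 38.81 and 54.37 CPM. No treated library overlapped a control at either time, and the replicates under NXP800 at 24 h were the most spread. The level was 1.82-fold lower at 6 h (log2 fold change -0.87, SE 0.10, edgeR adjusted p = 2.6e-06) and 3.14-fold lower at 24 h (log2 fold change -1.65, SE 0.10, edgeR adjusted p = 1.95e-09).

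CCND2, the remaining D-type cyclin, was nearly silent under DMSO and reached a low level under NXP800. Its raw counts were 6, 10 and 6 under DMSO and 84, 68 and 106 under NXP800 at 6 h. At 24 h they were 5, 4 and 0 against 66, 85 and 71. Every treated library lay well above every control, yet even these amount to 2.08 to 3.26 CPM. Over the summed counts, 258 against 22 at 6 h gave a ratio of 11.5 (95% interval 7.46 to 18.7), and 222 against 9 at 24 h gave 23.4 (12.1 to 51.9). These intervals cover counting error only. With a filter of at least 10 counts in every library CCND2 could not be tested, so no p is given for it.

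To set genes beside each other, levels were taken per kb of the canonical transcript. Which transcripts these cells use was not measured, so shares, sums and order depend on that choice. For CCND3 the length was 2026 of 5761 exon bases and for CDK4 1865 of 3094. On this scale CCND1 made up 77.9% ± 1.17 (SD, n = 3) of D-type cyclin RNA under DMSO and 81.8% ± 0.943 (SD, n = 3) under NXP800 at 6 h. At 24 h its share was 74.5% ± 1.46 against 90.3% ± 1.99 (SD, n = 3 each). CCND3 supplied nearly all of the rest, 22.1% against 18.0% at 6 h and 25.5% against 9.55% at 24 h. CCND2 stayed at or under 0.24% of the sum in every library. The summed level of the 3 genes was 302.2 ± 18.3 against 203.3 ± 10.3 CPM per kb at 6 h and 303.2 ± 10.2 against 259.5 ± 21.2 CPM per kb at 24 h (SD, n = 3 each). The D-type pool was therefore smaller at 6 h through both main cyclins and at 24 h through CCND3, in terms of group means.

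Both E-type cyclins, the partners of CDK2, fell at both times. For CCNE1 the libraries held 20.94, 26.58 and 26.34 CPM under DMSO and 11.88, 13.83 and 14.95 CPM under NXP800 at 6 h. At 24 h they held 21.58, 19.27 and 23.42 CPM against 15.02, 14.61 and 14.93 CPM. The treated libraries were lower than all controls at each time, and at 24 h they lay close together. The level was 1.82-fold lower at 6 h (log2 fold change -0.86, SE 0.11, edgeR adjusted p = 6.55e-06) and 1.44-fold lower at 24 h (log2 fold change -0.53, SE 0.11, edgeR adjusted p = 0.000641).

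CCNE2 went from 45.81, 49.59 and 49.85 CPM under DMSO to 21.4, 27.87 and 28 CPM under NXP800 at 6 h. Its controls were lower at 24 h, at 34.33, 29.76 and 26.75 CPM, and the treated libraries held 19.51, 18.44 and 13.72 CPM. Again no treated library reached a control of its own time. The level was 1.88-fold lower at 6 h (log2 fold change -0.91, SE 0.13, edgeR adjusted p = 1.51e-05) and 1.76-fold lower at 24 h (log2 fold change -0.81, SE 0.13, edgeR adjusted p = 5.61e-05). Per kb the sum of both E-type cyclins was 30.7 ± 2.47 against 16.6 ± 2.18 CPM per kb at 6 h and 22.3 ± 1.47 against 14.04 ± 1.14 CPM per kb at 24 h (SD, n = 3 each).

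Among the kinases, CDK6 rose at 6 h and not at 24 h. Its DMSO libraries held 120.5, 114.1 and 113.7 CPM at 6 h, and the NXP800 libraries 218.7, 217 and 204 CPM. At 24 h the values were 99.5, 101.7 and 100.8 CPM against 89.68, 103.4 and 92.34 CPM. The groups were far apart at 6 h and overlapped at 24 h, where replicate 2 of NXP800 was above all 3 controls and the other two were below them. The level was 1.84-fold higher at 6 h (log2 fold change 0.88, SE 0.062, edgeR adjusted p = 1.21e-08). At 24 h the log2 fold change was -0.08 with a 95% interval of -0.21 to 0.05 (edgeR adjusted p = 0.284), and it turned to 0.01 when libraries were scaled by their total alone.

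CDK4, which shares its cyclins with CDK6, shifted the least among the genes whose fitted direction was the same at both times. The 6 h libraries held 222.8, 230.4 and 225.9 CPM under DMSO and 210.9, 206.2 and 201.2 CPM under NXP800. At 24 h they held 268.7, 244.5 and 243.7 CPM against 230.4, 203.8 and 219.8 CPM. Treated libraries were below controls at both times, by a narrow margin. The log2 fold change at 6 h was -0.14 (SE 0.062, 95% interval -0.27 to -0.0042, edgeR adjusted p = 0.0777), and the fit with the replicate number as a block gave -0.14 with an edgeR adjusted p of 0.0169. At 24 h it was -0.21 (SE 0.062, edgeR adjusted p = 0.00833), a level 1.16-fold lower. That call was lost without replicate 1 of DMSO at 24 h (log2 fold change -0.16, edgeR adjusted p = 0.0508), without replicate 2 of NXP800 at 24 h (-0.14, 0.0796), with scaling by library total (-0.12, 0.0647) and in a fit of the 6 libraries of 24 h alone (-0.19, 0.0529).

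CDK2, the partner of the E-type cyclins, fell at both times. Its libraries held 82.56, 81 and 81.42 CPM under DMSO and 61.96, 62.23 and 62.02 CPM under NXP800 at 6 h. At 24 h the values were 81.73, 83.7 and 73.85 CPM against 42.46, 44.93 and 37.27 CPM. The controls of both times overlapped, and the treated libraries lay below them, further at 24 h. The level was 1.32-fold lower at 6 h (log2 fold change -0.40, SE 0.070, edgeR adjusted p = 0.00017) and 1.92-fold lower at 24 h (log2 fold change -0.94, SE 0.071, edgeR adjusted p = 1.59e-08).

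CDC25A, the phosphatase that activates CDK2, followed a similar course. At 6 h it held 117.1, 120.8 and 120.5 CPM under DMSO and 82.5, 82.88 and 82.96 CPM under NXP800. At 24 h it held 122.5, 109.4 and 118.9 CPM against 72.02, 64.49 and 67.04 CPM. All treated libraries were below all controls. The level was 1.44-fold lower at 6 h (log2 fold change -0.53, SE 0.060, edgeR adjusted p = 2.02e-06) and 1.72-fold lower at 24 h (log2 fold change -0.79, SE 0.060, edgeR adjusted p = 1.95e-08).

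**Figure D2:**
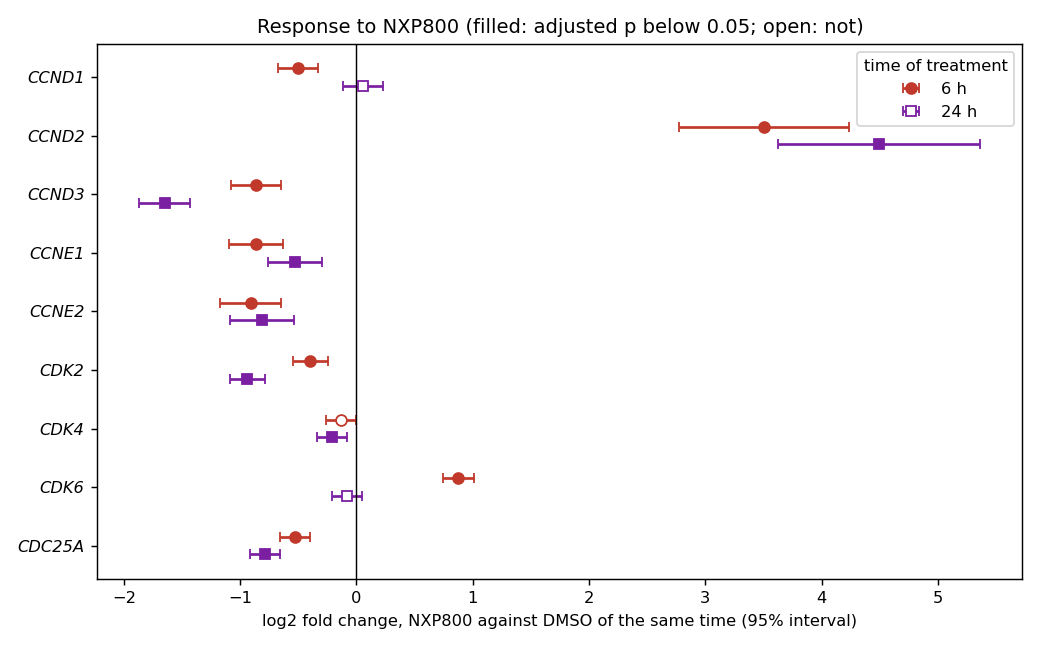
Log2 fold change of NXP800 against DMSO of the same time for the 9 genes, with 95% intervals; circles are 6 h and squares 24 h, filled where the edgeR adjusted p was below 0.05. CCND2 lies far to the right at both times on few counts and entered the test only through its NXP800 libraries. Its filled markers and intervals are therefore not read as a test. CDK6 is to the right at 6 h only, and CCND3 lies furthest to the left at 24 h.

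Whether the response differed between the times was tested in the same model as the 24 h log2 fold change minus the 6 h one. Of the 8 genes other than CCND2, 5 passed, 1 upward and 4 downward, where 12% of all genes tested passed upward and 13.8% downward. CCND1 passed upward (difference 0.56, SE 0.11, edgeR adjusted p = 0.00215), its loss at 6 h being gone at 24 h. CDK6 had the largest downward difference (-0.96, SE 0.088, edgeR adjusted p = 2.12e-06), followed by CCND3 (-0.78, SE 0.14, edgeR adjusted p = 0.000817) and CDK2 (-0.55, SE 0.099, edgeR adjusted p = 0.00084).

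CDC25A passed narrowly (difference -0.26, SE 0.085, edgeR adjusted p = 0.0353), and over the alternatives its adjusted p ran from 0.00426 to 0.146. Its call was lost in 10 of the 12 fits that left out 1 library, all but those without replicate 2 of DMSO at 24 h and without replicate 1 of NXP800 at 24 h. CCNE1 did not pass (difference 0.33, edgeR adjusted p = 0.127) but did with the replicate block (0.33, edgeR adjusted p = 0.0128) and without replicate 1 of DMSO at 6 h (0.44, edgeR adjusted p = 0.0443). For CCNE2 and CDK4 the differences were 0.10 (95% interval -0.28 to 0.48) and -0.08 (-0.26 to 0.11). For CCND2 it was 0.99 (-0.39 to 2.37). Without replicate 3 of DMSO at 24 h, the library with 0 counts, it was 0.43, and without replicate 1 of DMSO at 24 h 1.54. These CCND2 values rest on 0 to 10 counts in each DMSO library and are not read as a test. The 3 kinases thus differed: CDK6 was higher at 6 h and not at 24 h, CDK2 was lower by more at 24 h, and CDK4 shifted little. Time of treatment and the set of libraries cannot be told apart in these differences.

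Corrected for canonical transcript length, the order of the 9 RNAs was CCND1, CDK4, CCND3, CDK2, CDC25A, CCNE2, CCNE1, CDK6 and CCND2 in both DMSO groups. CCND1 stood at 235.5 ± 17.4 CPM per kb and CDK6 at 9.96 ± 0.328 CPM per kb under DMSO at 6 h (SD, n = 3). Neighbours did not overlap there, whereas at 24 h the ranges of CCNE2 and CCNE1 did. Under NXP800 at 6 h CDK6, at 18.3 ± 0.689 CPM per kb (SD, n = 3), stood above both E-type cyclins. Its mean was also above theirs under NXP800 at 24 h, at 8.16 against 7.60 for CCNE1 and 6.44 CPM per kb for CCNE2. There the order of CCND3, CDK2 and CDC25A held for the means only, since the ranges of CCND3 and CDK2 and of CDK2 and CDC25A overlapped. The 9 genes summed to 531.7 ± 14.3 against 398 ± 9.23 CPM per kb at 6 h and to 535.4 ± 21.1 against 434.8 ± 27.2 CPM per kb at 24 h (SD, n = 3 each).

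**Figure D3:**
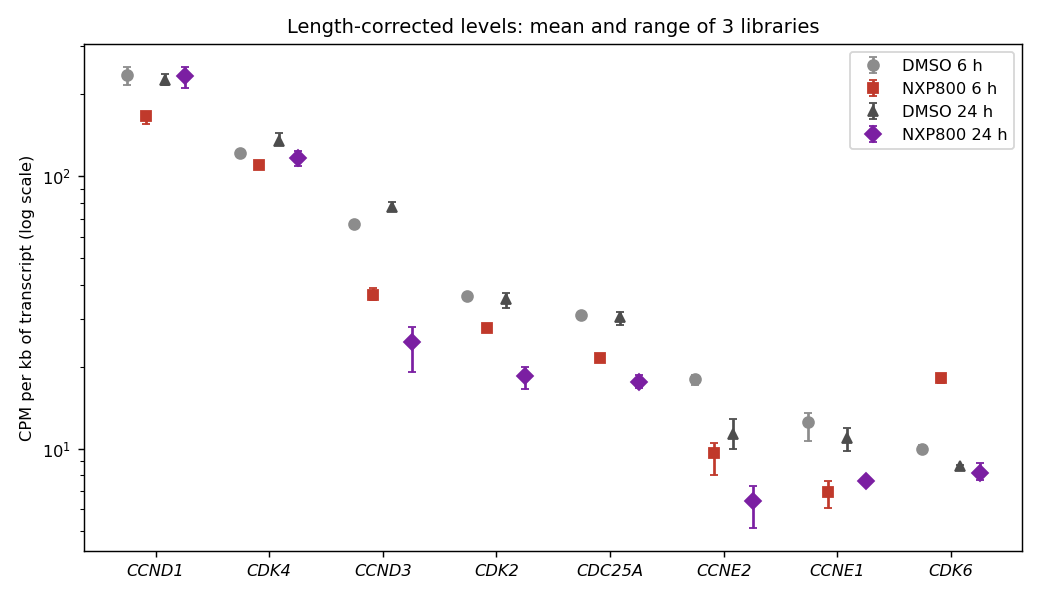
Length-corrected level in CPM per kb of the Ensembl canonical transcript (log axis) of 8 genes, CCND2 being left out with at most 0.501 CPM per kb. Symbols are means and bars the range of the 3 libraries of each group. CDK6 stands at 18.3 CPM per kb in the NXP800 libraries of 6 h, apart from its other groups at 8.16 to 9.96.

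Ratios of related genes within a library do not depend on how the libraries were scaled. The CCND1 to CCND3 ratio per transcript length was 3.53 under DMSO and 4.55 under NXP800 at 6 h, and 2.92 against 9.60 at 24 h, as means on the log2 scale turned back. Both times had all treated libraries above all controls, with log2 shifts of 0.37 and 1.72. The CDK6 to CDK4 ratio was 0.082 against 0.165 at 6 h, again with no overlap and a log2 shift of 1.01, and 0.0639 against 0.0698 at 24 h, with overlap. CDK6 thus went from 7.58% ± 0.333 to 14.2% ± 0.227 of the CDK4 and CDK6 sum at 6 h (SD, n = 3), while that sum was 131.3 ± 1.82 against 128.8 ± 3.24 CPM per kb. The CCNE2 to CCNE1 ratio overlapped between the treatments at both times. Within libraries of the same replicate number, however, its log2 shifts at 24 h were -0.29, -0.29 and -0.31, all downward and close together, whereas at 6 h they were -0.28, 0.11 and -0.02. Those of CDK6 to CDK4 at 24 h were 0.07, 0.29 and 0.02, all upward. An exact two-sided permutation test of 3 against 3 libraries cannot go below p = 0.1. The 3 separated ratios reached that p (adjusted 0.2 over the 6 tests), and the others gave 0.6, 0.3 and 0.4. Taken as 3 pairs, the libraries cannot give a value below p = 0.25, which each ratio reached in an exact sign-flip permutation except CCNE2 to CCNE1 at 6 h (p = 0.75).

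**Figure D4:**
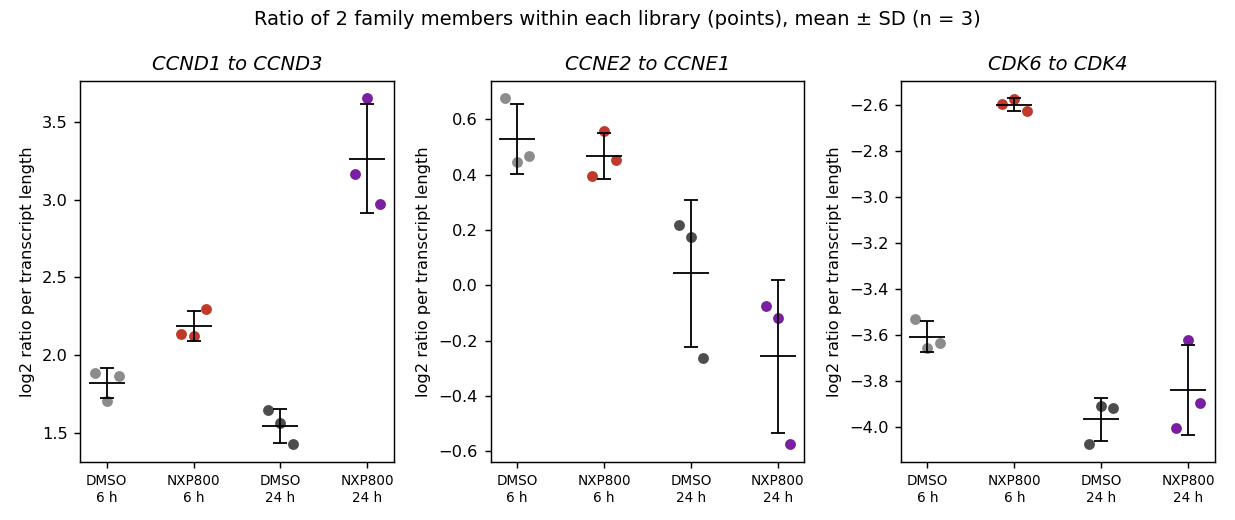
Log2 ratio of 2 related genes within each library, per transcript length; points are libraries and bars the mean and SD of 3. CCND1 to CCND3 rises away from its controls at both times, CDK6 to CDK4 at 6 h only, and CCNE2 to CCNE1 overlaps at each time, with its 24 h points shifted down by 0.29 to 0.31 within replicate numbers.

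Several of these genes share exons with genes on the other strand, and whether the counting used strand is not given in the sources used here. Of the exon bases of CDK4, 44.2% overlap TSPAN31, which rose from 8.62 to 11.9 CPM at 6 h and from 7.57 to 11.3 CPM at 24 h, against the direction of CDK4. CCNE2 shares 37.1%, mainly with INTS8, a subunit of the Integrator complex, which fell with log2 fold changes of -0.45 and -0.47. CCND1 shares 10.4% with LTO1, which rose by 1.02 and 0.71 on the log2 scale, and CDK2 shares 16.8% with PMEL and an unnamed gene, PMEL being at 0.338 to 0.389 CPM in group means. CCND2 also shares 12.5% of its exon bases with an unnamed gene on its own strand. CCNE1 and CDC25A share none. The part of the overlapping genes in the results was not tested.

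The sequences before the transcript start were read for 5 of the genes, CCND3, CCNE1, CDC25A, CDK4 and CDK6, with 8 starts among them, from RefSeq on GRCh38.p14. The letters searched on both strands were TTTGGCGC, TTTGCCGC, TTTCGCGC and TTTCCCGC for E2F, CACGTG for the E-box bound by MYC, TGACGTCA for the cAMP response element, TGATGNAA for the amino acid response element and GGGCGG for the GC box. They were chosen after the sequences had been seen. Of 35116 promoter windows of 250 bases, 2.79% hold an E2F word, 6.34% the E-box, 1.65% the cAMP response element, 3.14% the amino acid response element and 42.6% the GC box. Shown are a gene that fell at both times with an E2F word (CDC25A, minus strand, chr3:48188418-48188667), one that fell at both times without (CCNE1, plus strand, chr19:29811741-29811990), and the kinases that shifted little (CDK4, minus strand, chr12:57752311-57752560) and rose at 6 h (CDK6, minus strand, chr7:92836574-92836823), each 250 bases 5′ to 3′ ending at the base before the start, with E2F words and E-boxes in capitals and the common GC box unmarked:
CDC25A: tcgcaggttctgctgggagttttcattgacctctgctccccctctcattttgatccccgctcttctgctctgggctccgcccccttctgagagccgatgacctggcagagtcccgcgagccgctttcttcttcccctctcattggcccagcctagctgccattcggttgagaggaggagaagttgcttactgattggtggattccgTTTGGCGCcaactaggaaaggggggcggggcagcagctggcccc
CCNE1: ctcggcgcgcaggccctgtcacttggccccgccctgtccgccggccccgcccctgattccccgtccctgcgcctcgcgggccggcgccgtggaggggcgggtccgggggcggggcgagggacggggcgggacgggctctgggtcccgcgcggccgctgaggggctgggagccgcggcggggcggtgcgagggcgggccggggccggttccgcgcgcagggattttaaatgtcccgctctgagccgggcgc
CDK4: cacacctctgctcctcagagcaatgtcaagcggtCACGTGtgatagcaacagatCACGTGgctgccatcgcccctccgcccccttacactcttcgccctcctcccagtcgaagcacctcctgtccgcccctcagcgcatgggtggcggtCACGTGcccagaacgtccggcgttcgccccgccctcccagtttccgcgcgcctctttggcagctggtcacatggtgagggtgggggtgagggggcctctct
CDK6: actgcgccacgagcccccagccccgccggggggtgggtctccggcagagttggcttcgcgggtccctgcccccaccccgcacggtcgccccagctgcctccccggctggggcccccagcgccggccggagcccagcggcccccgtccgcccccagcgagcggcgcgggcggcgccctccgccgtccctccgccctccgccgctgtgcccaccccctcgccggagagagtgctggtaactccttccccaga
CDC25A holds 1 E2F word and CDK4 holds 3 E-boxes, which do not overlap. The windows of CCNE1, of both starts of CDK6 and of the 3 starts of CCND3 held no E2F word, E-box, cAMP or amino acid response element. The GC box was found 7 times in the printed window of CCNE1, 2 times in that of CDC25A and 3 times each in those of CDK4 and CDK6. A match describes letters and not a bound site. Only these exact words in these windows were searched, so a window without one is not shown to lack a site.

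Around the 9 genes, the CDK inhibitors went both ways. Counts in this and the following lists stand beside a broad response. Of all genes tested, 25% rose and 27.8% fell at 6 h, and 27.5% rose and 28.6% fell at 24 h. No list was tested as a set. Of 7 genes, 5 were tested, since CDKN2A and CDKN2B had 0 counts in every library; 2 rose and 1 fell at 6 h, and 2 rose and 2 fell at 24 h. CDKN1A, which encodes the CIP/KIP inhibitor p21, rose at 6 h from 41.1 ± 2.15 to 185 ± 17.5 CPM (log2 fold change 2.17, edgeR adjusted p = 4.22e-10) and at 24 h from 16.6 ± 2.20 to 54.6 ± 8.86 CPM (1.72, edgeR adjusted p = 5.28e-09; SD, n = 3 each). CDKN2C, which encodes the INK4 inhibitor p18 of CDK4 and CDK6, fell from 12.4 ± 0.760 to 2.72 ± 0.157 CPM and from 17.4 ± 0.505 to 1.59 ± 0.428 CPM (log2 fold changes -2.18 and -3.46, edgeR adjusted p = 3.11e-09 and 4.91e-11). The fitted changes of both were larger in size than those of the 8 genes other than CCND2. At 24 h, however, CDKN1A (1.72, SE 0.12) and CCND3 (-1.65, SE 0.10) differed in size by less than either SE.

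Of the 13 pocket proteins, E2F and DP factors, 3 rose and 5 fell at 6 h, against 25% and 27.8% of all tested genes. At 24 h 2 rose and 7 fell, against 27.5% and 28.6%. The median log2 fold changes were -0.04 and -0.19. RB1 itself had a log2 fold change of 0.15 (edgeR adjusted p = 0.0536) at 6 h and fell by 0.19 on the log2 scale at 24 h (edgeR adjusted p = 0.016). E2F7, an E2F that represses, rose from 59.4 ± 2.61 to 278.1 ± 17.3 CPM at 6 h and from 51.7 ± 10.9 to 179 ± 49.7 CPM at 24 h (log2 fold changes 2.23 and 1.79). E2F8, its closest relative, fell, from 14.6 to 10.7 CPM and from 10.3 to 1.26 CPM (-0.46 and -3.02). The activator E2F2 also fell, from 15.6 to 8.65 CPM and from 17.1 to 2.695 CPM (-0.85 and -2.67). The edgeR adjusted p was at most 0.00344 for each of these 3 genes.

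The replication genes under E2F fell almost together. Of 23, 19 fell at 6 h and 22 at 24 h, none rose, and the medians were -0.55 and -1.02. Among all tested genes 27.8% fell and 25% rose at 6 h, and 28.6% fell and 27.5% rose at 24 h. ORC1, of the origin recognition complex, went from 75.6 to 28.5 CPM at 6 h and from 92.6 to 39.3 CPM at 24 h (log2 fold changes -1.41 and -1.24), and the helicase subunit GINS1 from 101.9 to 49.6 and from 91.1 to 40.5 CPM (-1.04 and -1.17). The thymidylate enzymes moved further at the later time. TK1 went from 200.1 to 135.7 CPM at 6 h and from 254.3 to 54.4 CPM at 24 h, and TYMS from 646.3 to 440 and from 644.8 to 176.1 CPM (log2 fold changes -0.56 and -2.23, and -0.55 and -1.87). All 4 passed at both times (edgeR adjusted p at most 5.86e-05).

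**Figure D5:**
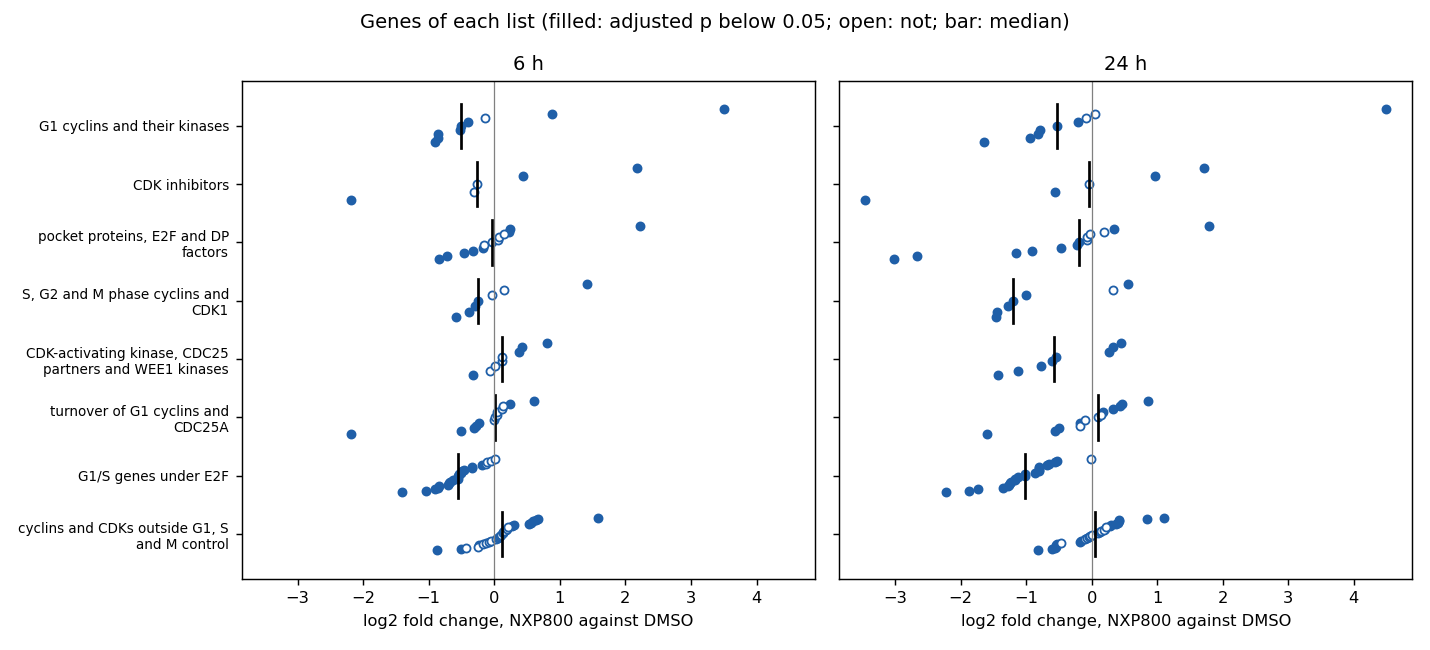
Log2 fold change of NXP800 against DMSO at 6 h and 24 h for the tested genes of 8 lists, one row per list; filled points have an edgeR adjusted p below 0.05 and the bar is the list's median. The G1/S genes under E2F lie almost wholly to the left, with a median of -0.55 at 6 h and -1.02 at 24 h. The row of G1 cyclins and their kinases and its median include CCND2, whose filled points are not read as a test.

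In the list of 7 genes of the later cyclins and CDK1, 1 rose and 4 fell at 6 h, against 25% and 27.8% of all tested genes. At 24 h 1 rose and 5 fell, against 27.5% and 28.6%. The medians were -0.25 and -1.21. CCNA2, the S phase partner of CDK2, went from 164.1 to 109.8 CPM at 6 h and from 153.8 to 55.9 CPM at 24 h (log2 fold changes -0.58 and -1.46, edgeR adjusted p = 3.75e-05 and 1.68e-09). The mitotic kinase CDK1 fell by 0.25 and 1.44 on the log2 scale. CCNA1, the germline relative of CCNA2, was the one that rose, from 2.53 to 6.78 CPM at 6 h and from 2.16 to 3.18 CPM at 24 h (edgeR adjusted p = 1.35e-05 and 0.0333).

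Of the 8 genes of the CDK-activating kinase, the CDC25 partners and the WEE1 kinases, 3 rose and 1 fell at 6 h. At 24 h 3 rose and 5 fell. The shares of all tested genes were 25% and 27.8% at 6 h, and 27.5% and 28.6% at 24 h. CDK7 and CCNH, kinase and cyclin of the CDK-activating kinase, rose at both times (CDK7 by 0.80 and 0.44, CCNH by 0.42 and 0.26 on the log2 scale). PKMYT1, which places inhibitory phosphates on CDK1, and CDC25C, which removes them, did not pass at 6 h (0.12 and 0.01) and fell at 24 h (log2 fold changes -1.42 and -1.12).

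In the list of 13 genes for the turnover of G1 cyclins and CDC25A, 2 rose and 5 fell at 6 h. At 24 h 5 rose and 4 fell. Among all tested genes 25% rose and 27.8% fell at 6 h, and 27.5% and 28.6% at 24 h. SKP2, the ubiquitin ligase subunit that marks p27 for destruction, fell from 52.4 to 11.5 CPM at 6 h and from 55.7 to 18.5 CPM at 24 h (log2 fold changes -2.18 and -1.59, edgeR adjusted p = 7.9e-10 and 1.07e-08). FBXO4, an F-box protein linked to cyclin D1 turnover, rose from 6.15 to 9.40 and from 4.59 to 8.31 CPM (0.61 and 0.86). CCND1 protein, on which such enzymes act, is not seen in these data.

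The cyclins and CDKs listed here as outside G1, S and M control, many of them transcriptional, had medians close to 0. Of 28 tested of 29 (CDK3 had 0 counts in every library), 9 rose and 3 fell at 6 h, against 25% and 27.8% of all tested genes. At 24 h 9 rose and 8 fell, against 27.5% and 28.6%. The medians were 0.12 and 0.05. CDK17 rose most at both times, from 38.5 to 115.5 CPM and from 25.5 to 54.7 CPM (log2 fold changes 1.58 and 1.10). CCNQ fell (-0.88 and -0.55), and CCNO, at 3.70 to 6.61 CPM, rose at 24 h by 0.84 on the log2 scale.

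By the pattern over the 12 libraries, the genes most like the 9 were found by Pearson's r of log2 CPM, as a description. CCND3 was closest to SNRNP25 (r = 0.999), a subunit of the minor spliceosome. CDK6 was closest to the transcription factors NFKB1 (r = 0.990) and AHR (r = 0.989). CDK2 was closest to LPCAT2 (r = 0.990), a phospholipid enzyme, and then to the condensin subunit NCAPH (r = 0.987). CDC25A was closest to RCC1L (r = 0.991), a mitochondrial protein, and then to the replication gene GINS2 (r = 0.989). The likeness was lowest for CCND1, whose nearest gene was PPARGC1B (r = 0.956). The points share depth, time and treatment, so the likeness describes these libraries and says nothing of shared control.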

How the data were processed

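The deposited files hold raw counts of read pairs per RefSeq gene, made by the authors, per the labels and their processing notes, with fastp 0.20.1, STAR 2.7.5a and HTSeq 0.12.4 on GRCh38.p14 from a strand-specific poly(A) library. The strand setting of the counting is not given in the sources used here. Summary rows without a gene did not enter the library sizes: read pairs overlapping no counted feature were 2.73% to 8.14%, ambiguous ones 2.10% to 2.43% and non-unique ones 1.86% to 3.37%. Libraries held 30810614 to 31947656 counts.

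Here counts were scaled by TMM, filtered with filterByExpr (15979 genes) and fitted over all 4 groups with the quasi-likelihood test of edgeR 4.0.16 in R 4.3.3, Benjamini-Hochberg adjusted over all tested genes, for NXP800 against DMSO at 6 h, at 24 h and the difference between them. The script was tested on simulated data. Levels are CPM, divided for comparison between genes by the GENCODE 44 canonical transcript length, and within-library ratios used a pseudocount of 0.5. Alternatives were DESeq2 1.42.0 (size factors, Wald test), scaling by library total, other filters, single time points, an adjusted p of 0.01, each library left out, and the replicate number as a block. Libraries of the same number deviated together from their group means (r = 0.160 to 0.329 in all pairs, at most 0.0580 between numbers), so the numbers, taken from the labels, may pair the libraries. The main fit and the 3-against-3 tests do not use them, and the block is an alternative, printed beside a result where it changes the call. The 9 genes and the other lists were chosen with earlier results of these data known. Other genes were named by rule: the called genes with the largest change in each list and time, up to 2, making 21.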

Additional observations from a re-analysis of the deposited data

Results flagged for a closer look

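Of the 8 genes other than CCND2, 5 were flagged because their response to NXP800 differed between 6 h and 24 h. The edgeR test was of the difference itself, and 12% of all genes tested passed it upward and 13.8% downward. The 24 h log2 fold change minus the 6 h one was 0.56 for CCND1, -0.78 for CCND3, -0.55 for CDK2, -0.96 for CDK6 and -0.26 for CDC25A. For CDC25A the call was lost in 10 of the 12 fits that left out 1 library. Time of treatment and the set of libraries cannot be told apart in these differences.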

How the results depend on the processing

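Over the alternatives, 6482 to 9953 of all tested genes were called at 6 h and 7054 to 10411 at 24 h. The difference between the times was called for 2236 to 6284, and the main fit tested 15979 genes. The responses of CCND1, CCND3, CCNE1, CCNE2, CDK2, CDK6 and CDC25A kept their side of the threshold at 6 h and 24 h under every alternative. CDK4 at 24 h lost its call in 4 alternatives, with log2 fold changes of -0.19 to -0.12 against -0.21. CDK6 at 24 h, not called, turned from -0.08 to 0.0117 with scaling by library total. The replicate block called CDK4 at 6 h (-0.1352) and the CCNE1 difference between the times (0.3347), changed no other call of the 9 genes, and moved the number of all tested genes that passed for the difference from 4129 to 6284; an adjusted p below 0.01 left 2236. Without 1 library at a time, the CCND2 difference ran from 0.4327 to 1.5407, the CCNE2 difference from -0.0222 to 0.2366 and the 6 h shift of the CCNE2 to CCNE1 ratio from -0.1066 to 0.0111 on the log2 scale. The CDC25A difference was not called with scaling by library total (-0.1842), without a filter (-0.2395) or in 10 of the 12 fits that left out 1 library. The causes were not tested. CCND2 had no value under the filter of 10 counts in every library. With 3 libraries a group the exact test of a ratio cannot pass, and at this depth the DMSO level of CCND2 rests on 0 to 10 counts a library.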
